A study of Homo sapiens with 9 samples.

Results

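The 7 genes described here make and remove superoxide and hydrogen peroxide: the superoxide dismutase genes SOD1, SOD2 and SOD3, the catalase gene CAT, the glutathione peroxidase gene GPX1, and the NADPH oxidase genes NOX4 and CYBA. They were chosen by symbol out of 58884 Ensembl identifiers in the deposited files. The symbols matched 8 identifiers, because GENCODE release 29 gives the name SOD2 to 2 overlapping genes. Levels are FPKM, fragments per kilobase of exon scaled to the assigned fragments of the library, and 6 of the 7 genes passed the filter of at least 0.5 FPKM in at least 3 libraries.

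RNA came from HK-2 cells, 1 immortalised line of human renal proximal tubule epithelium grown in keratinocyte serum-free medium with pituitary extract and EGF. The group of lactoferrin plus PM2.5, LF+PM2.5 (3 libraries), had 6 h of lactoferrin, an iron-binding milk glycoprotein, and then 18 h of PM2.5, fine airborne particulate matter. The PM2.5 group (3 libraries) had 24 h of PM2.5, and the control group (3 libraries) is labelled untreated, while the protocol text speaks of vehicle. The stated doses were 1 mg/ml for PM2.5 and 40 mg/ml for lactoferrin, units that could not be checked, and no group had lactoferrin alone. The labels do not say whether replicates were separate cultures, so p-values measure the spread between these libraries, which may be technical.

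Superoxide arises from electron leak in mitochondria and from NADPH oxidases, membrane enzymes that pass electrons from NADPH to oxygen. Dismutases turn superoxide into hydrogen peroxide: SOD1 in the cytosol and SOD3 outside the cell use copper and zinc, and SOD2 in the mitochondrial matrix uses manganese. Catalase breaks down hydrogen peroxide in peroxisomes, and GPX1, a selenoprotein, reduces it with glutathione. NOX4 is an oxidase first described in kidney, and the membrane subunit encoded by CYBA stabilises it.

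The files corresponded to 15313475 to 18820473 assigned fragments per library. The first principal component (54.4% of the variance) put the 3 control libraries on one side and the 6 exposed libraries on the other. The second set LF+PM2.5 replicate 1 apart (score 38.1, against 7.9 and -7.1 for its group), and the third set control replicate 3 apart (27.0, against -20.6 and -11.2). Of 6 markers of simple epithelium, KRT8, KRT18, KRT19 and EPCAM were at 17.4 FPKM or more in every library, KRT7 was at 0.237 to 1.36 FPKM and CDH1, the epithelial cadherin, at 0.0191 to 0.257 FPKM. KRT8 averaged 82.4, 67.1 and 103 FPKM and KRT7 0.302, 0.332 and 1.30 FPKM with LF+PM2.5, with PM2.5 and in control. Both fell with PM2.5 versus control (log2 fold change -0.66 and -1.15). KRT18 went the other way, at 73.5, 58.9 and 49.9 FPKM in the same order of groups. It stood at 0.20 with PM2.5 versus control (limma adjusted p = 0.301). With LF+PM2.5 versus control it rose by 0.52 (limma adjusted p = 0.0191). Of 14 proximal tubule markers 13 stayed below 1 FPKM in every library, and SLC22A6 was listed at 0 throughout. ALPL, the exception, averaged 0.313, 0.363 and 0.937 FPKM with LF+PM2.5, with PM2.5 and in control. Its log2 fold change with PM2.5 versus control was -0.76 (limma adjusted p = 0.0138). GGT1, the other tested gene of that list, stood at 0.06 (limma adjusted p = 0.823). Of 8 immune cell markers 7 stayed below 1 FPKM everywhere, and the 8 summed to 0.383 to 0.898 FPKM with LF+PM2.5, 0.491 to 0.837 with PM2.5 and 0.704 to 1.59 in control. Of 8 fibroblast and endothelial markers 6 stayed below 1 FPKM, and the 8 summed to 1.95 to 2.15, 2.35 to 2.67 and 7.01 to 8.90 FPKM in the same order of groups. COL1A1 averaged 1.14, 1.42 and 6.77 FPKM. DCN, the other tested gene of that list, went the other way, at 0.738, 1.01 and 0.559 FPKM. It rose by 0.48 on the log2 scale with PM2.5 versus control (limma adjusted p = 0.0197). The part of these differences in the results below was not tested. In bulk libraries such as these, fewer cells of a kind and less RNA per cell cannot be told apart.

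SOD2 was the member that rose with PM2.5. Its level was 16.0, 15.7 and 17.1 FPKM in the LF+PM2.5 libraries, 21.3, 22.1 and 22.6 FPKM in the PM2.5 libraries, and 12.6, 13.1 and 9.44 FPKM in control. The 3 groups did not overlap: every PM2.5 library lay above every LF+PM2.5 library, and those lay above every control library. SOD2 is the manganese enzyme of the mitochondrial matrix (ENSG00000112096, GRCh38 chromosome 6, 159669057 to 159745186, minus strand).

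With PM2.5 versus control the log2 fold change of SOD2 was 0.85 ± 0.10 (SE), 1.80-fold with a 95% interval of 1.55 to 2.11 (limma adjusted p = 0.000262, Benjamini-Hochberg over 14454 genes). With LF+PM2.5 versus control it was 0.43 ± 0.10 (limma adjusted p = 0.00775). SOD2 was past the threshold in all 22 alternative analyses of each of these 2 comparisons. The second value was 0.71 after a trend on exon length was removed. Without control replicate 3 and LF+PM2.5 replicate 1 together the values were 0.73 and 0.32, with limma adjusted p = 0.000105 and 0.00477.

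In LF+PM2.5 and PM2.5 libraries SOD2 averaged 16.3 ± 0.756 and 22.01 ± 0.641 FPKM (SD, n = 3 each), a log2 difference of -0.42 ± 0.10 with a 95% interval of -0.64 to -0.19. Its unadjusted p was 0.0021 and its limma adjusted p = 0.256, so the difference did not pass the threshold over all genes. It passed in 1 of 22 alternatives, the one with library weights (limma adjusted p = 0.0059), and was -0.27 after the exon length trend was removed. The groups differed in time in PM2.5 (18 h and 24 h) as well as in lactoferrin, and the design cannot tell these apart.

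**Figure D1:**
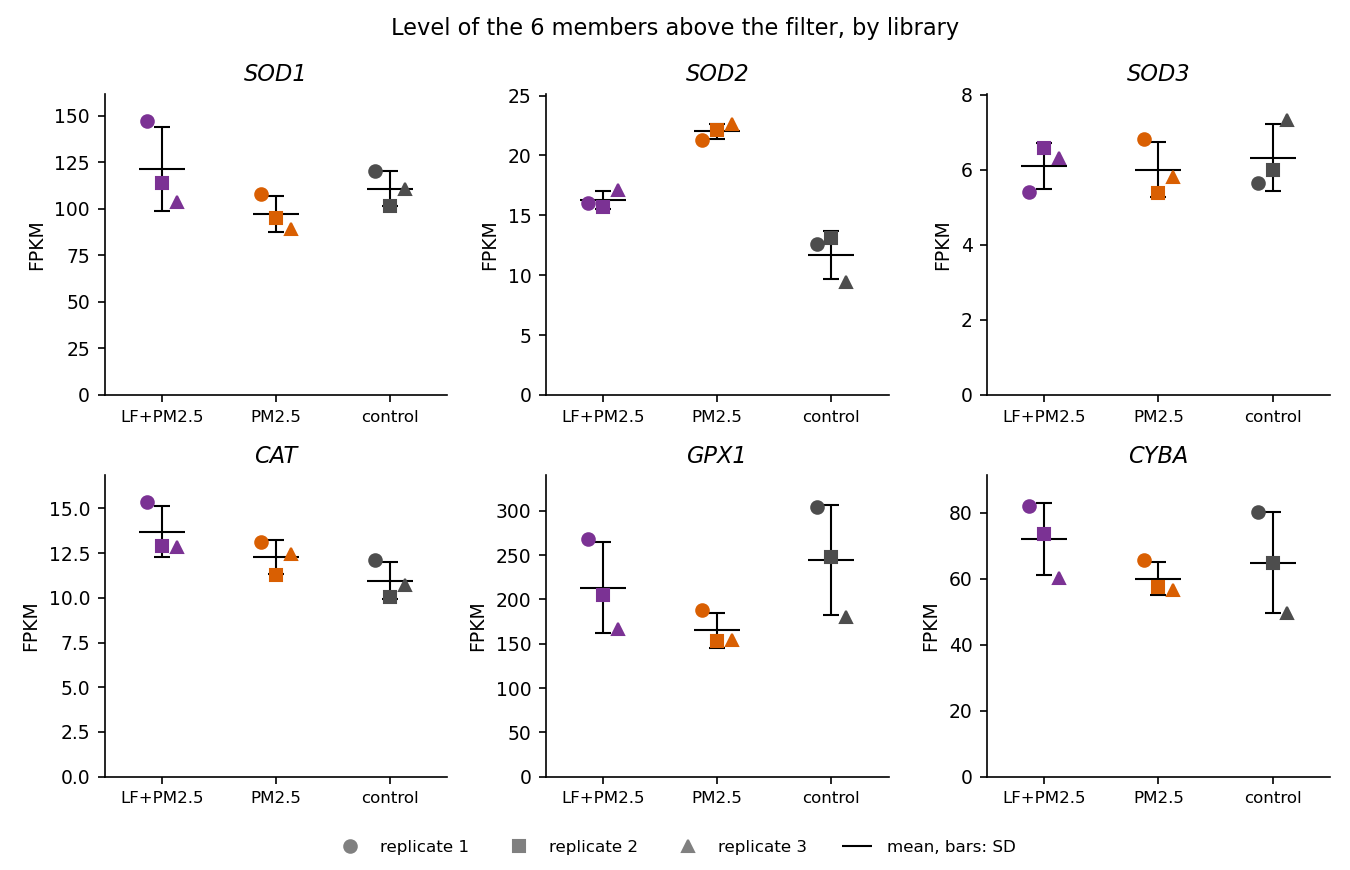
FPKM (vertical axis, from 0) of the 6 members above the filter in the LF+PM2.5, PM2.5 and control libraries, with symbols for replicates and lines for the mean and SD of 3. For SOD2 the PM2.5 libraries sit at 21.3 to 22.6 FPKM, above all others, while for SOD1, CAT, GPX1 and CYBA replicate 1 is the highest library of every group.

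Some of SOD2's annotation bears on its level. Its exons joined over all transcripts span 16493 bases in GENCODE release 29, longer than those of the other members (1430 to 6096 bases). The length behind its deposited FPKM is not given in the sources used here and appears to differ from this one. The second SOD2 identifier, ENSG00000285441, shares 845 exon bases with the first and stayed between 0.0236 and 0.208 FPKM, or 1 to 10 fragments per library. WTAP, on the opposite strand, overlaps 298 exon bases (1.81%) and was at 15.8 to 18.5 FPKM. No source used here gives the strand setting, and reads of these bases cannot be assigned to a strand.

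The promoter sequences below show the letters before the start of SOD2, which rose, and of CAT and CYBA, which did not pass the test. They are RefSeq promoters on GRCh38.p14, cut to bases that no GENCODE release 29 exon covers, 5′ to 3′ on the gene's strand, with the GC-box letters GGGCGG (either strand) in capitals. SOD2 is chr6:159693329-159693491 on the minus strand, CAT is chr11:34438684-34438924 on the plus strand, and CYBA is chr16:88651153-88651303 on the minus strand.
SOD2: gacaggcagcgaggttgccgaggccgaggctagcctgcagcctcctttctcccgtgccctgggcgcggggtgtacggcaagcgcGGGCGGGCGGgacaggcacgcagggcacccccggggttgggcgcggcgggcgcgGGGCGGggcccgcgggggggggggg
CAT: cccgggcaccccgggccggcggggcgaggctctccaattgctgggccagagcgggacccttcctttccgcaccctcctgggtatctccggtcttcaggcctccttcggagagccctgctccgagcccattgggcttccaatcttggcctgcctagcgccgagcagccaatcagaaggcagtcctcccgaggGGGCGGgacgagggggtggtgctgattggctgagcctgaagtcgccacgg
CYBA: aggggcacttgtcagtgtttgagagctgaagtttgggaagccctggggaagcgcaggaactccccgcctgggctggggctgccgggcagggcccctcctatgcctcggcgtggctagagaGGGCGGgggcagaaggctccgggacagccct
The SOD2 stretch holds 3 GC boxes, of which 2 overlap each other, and the CAT and CYBA stretches hold 1 each.

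RefSeq gives 4 starts for SOD2, and the one shown holds the most GC boxes, 6 in the whole 250 bases before it, against 4, 1 and 1 at the others. In the same window CYBA had 6, CAT 1 and GPX1 1, and SOD3 had 0. Of all 35116 RefSeq promoters 42.6% hold at least 1 in that window. Of 3 NOX4 starts 1 had a GC box. The windows of SOD2, SOD3, CAT, GPX1, NOX4 and CYBA were searched for other motifs on both strands. None held the antioxidant response element core TGACNNNGC (10.9% of all promoters) or the AP-1 letters TGANTCA (6.57%). Nor did any hold the kappaB pattern searched, GGGAA and CC parted by NNN (6.02%). Wider kappaB patterns were not searched. SOD1 was not searched. These windows leave out introns and distant enhancers. GC boxes were thus present before SOD2, which rose, and before CYBA and CAT, which did not pass the test.

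Of the other dismutases, SOD1 was the most abundant. SOD1 is the copper and zinc enzyme of the cytosol (ENSG00000142168, GRCh38 chromosome 21, 31659622 to 31668931, plus strand). It had 147, 114 and 104 FPKM with LF+PM2.5, 108, 95.1 and 89.1 with PM2.5, and 120, 102 and 110 in control. The groups overlapped in all 3 comparisons. The log2 fold change was -0.23 ± 0.15 with PM2.5 versus control (95% interval -0.58 to 0.11, limma adjusted p = 0.266), and 0.32 ± 0.15 with LF+PM2.5 versus PM2.5 (-0.03 to 0.66, limma adjusted p = 0.424). LF+PM2.5 replicate 1 was the highest library, and without it the log2 fold change of SOD1 between LF+PM2.5 and PM2.5 was 0.15 (limma adjusted p = 0.903).

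SOD3, the dismutase secreted into the extracellular matrix, was the lowest of the 3 (ENSG00000109610, GRCh38 chromosome 4, 24789912 to 24800842, plus strand). Its levels were 5.40, 6.58 and 6.30 FPKM with LF+PM2.5, 6.81, 5.38 and 5.797 with PM2.5, and 5.63, 5.99 and 7.33 in control, from 183 to 272 fragments per library. All 3 groups overlapped, and the 95% intervals of its log2 fold change ran from -0.42 to 0.20 with PM2.5 versus control and from -0.39 to 0.23 with LF+PM2.5 versus control (limma adjusted p = 0.564 and 0.676). Without control replicate 3, its highest library, these log2 fold changes were 0.01 and 0.04, against -0.11 and -0.08 with it.

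Set against SOD1 and CAT inside each library, where scaling between libraries drops out, SOD2 was again highest with PM2.5. The ratio of SOD2 to SOD1 FPKM was 0.109, 0.138 and 0.165 with LF+PM2.5, 0.198, 0.233 and 0.254 with PM2.5, and 0.104, 0.129 and 0.0855 in control. The PM2.5 libraries lay above all others, and the LF+PM2.5 and control libraries overlapped. The mean ratio was 2.16-fold higher with PM2.5 than in control and 0.596-fold with LF+PM2.5 relative to PM2.5 (geometric means), each with a two-sided exact permutation p = 0.1. That is the smallest p that 3 libraries against 3 can give, and adjusted over 15 such ratio comparisons it was 0.3. The ratio of SOD2 to CAT was 1.04 to 1.33 with LF+PM2.5, 1.63 to 1.96 with PM2.5 and 0.881 to 1.30 in control, with the same overlaps and the same exact permutation p = 0.1 in both comparisons with PM2.5.

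**Figure D2:**
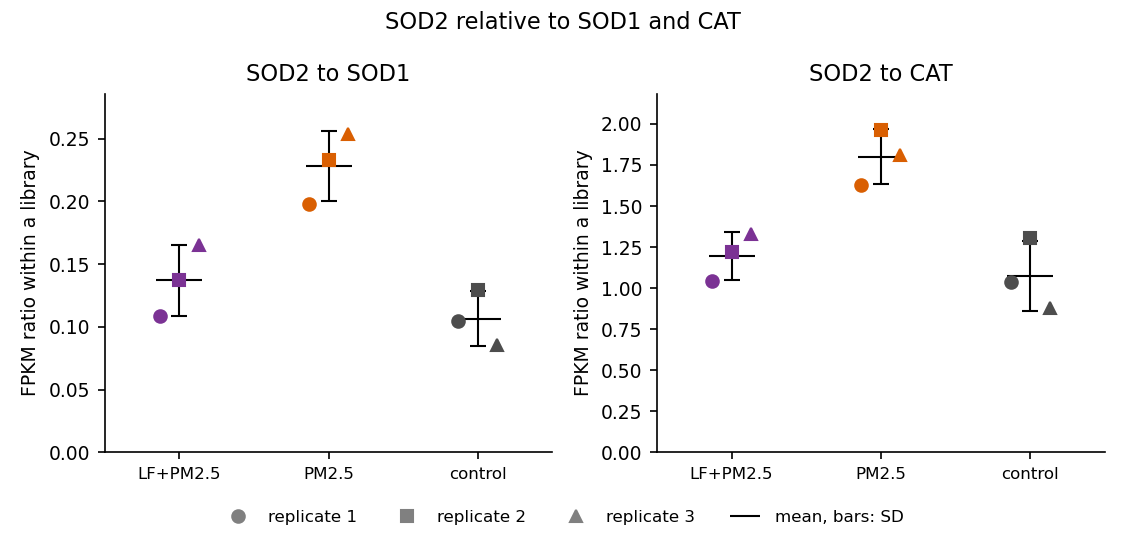
Ratio of SOD2 to SOD1 (left) and of SOD2 to CAT (right) FPKM within each library, by group, with symbols for replicates and lines for the mean and SD of 3. The PM2.5 libraries sit at 0.198 to 0.254 for SOD1 and 1.63 to 1.96 for CAT, above every other library.

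Among the enzymes that remove hydrogen peroxide, CAT had higher means in both exposed groups than in control and GPX1 lower ones, and neither passed the test over all genes. CAT encodes the peroxisomal heme enzyme catalase (ENSG00000121691, GRCh38 chromosome 11, 34438925 to 34472062, plus strand). It had 15.3, 12.9 and 12.9 FPKM with LF+PM2.5, 13.1, 11.3 and 12.5 with PM2.5, and 12.1, 10.1 and 10.7 in control. The LF+PM2.5 libraries lay above all control libraries, and the PM2.5 libraries overlapped both. The log2 fold change was 0.27 ± 0.11 with LF+PM2.5 versus control (95% interval 0.02 to 0.52, limma adjusted p = 0.0822), 0.16 ± 0.11 against PM2.5 and 0.11 ± 0.11 with PM2.5 versus control (limma adjusted p = 0.52 and 0.453). The first of these passed in 3 of 22 alternatives, among them the one without scaling (limma adjusted p = 0.0427) and the one with library weights (0.0164). It was 0.16 without LF+PM2.5 replicate 1 (limma adjusted p = 0.239).

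GPX1 was the most abundant member (ENSG00000233276, GRCh38 chromosome 3, 49357171 to 49358600, minus strand). GENCODE release 29 types it as a polymorphic pseudogene, although it codes for the enzyme. It had 268, 205 and 166 FPKM with LF+PM2.5, 188, 153 and 154 with PM2.5, and 305, 248 and 180 in control. The highest PM2.5 library lay above the lowest control library, control replicate 3, and after scaling the 2 groups just parted. The control libraries themselves spread 1.69-fold. With PM2.5 versus control the means were 165 ± 19.9 and 244 ± 62.5 FPKM (SD, n = 3 each) and the log2 fold change -0.58 ± 0.22 (95% interval -1.08 to -0.09, limma adjusted p = 0.0648).

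That GPX1 difference was past the threshold in 9 of 22 alternatives, with adjusted p-values from 0.001 to 0.192 over all 22 (limma). Without control replicate 3 it was -0.77 (limma adjusted p = 0.0299), and without control replicate 1 -0.43 (0.192). The call also turned with LF+PM2.5 replicate 1 (0.0387 without it) or 3 (0.0426 without it), which enter through the shared estimate of spread. With LF+PM2.5 versus PM2.5 the log2 fold change was 0.35 ± 0.22 (limma adjusted p = 0.478), and against control -0.23 ± 0.22 (limma adjusted p = 0.438). Without LF+PM2.5 replicate 1 these were 0.15 and -0.44 (limma adjusted p = 0.944 and 0.141). Without control replicate 3 as well, the second was -0.60 (limma adjusted p = 0.0372).

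Reads of GPX1 can be shared with a near copy. The pseudogene GPX1P1 was listed at 7.47 ± 0.807, 5.05 ± 1.01 and 7.12 ± 2.99 FPKM (SD, n = 3 each) with LF+PM2.5, with PM2.5 and in control. The pseudogenes of SOD1 and SOD2 were at or near 0, at most 0.133 FPKM in any library. How the authors treated reads with several matches is not given in the sources used here.

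Of the NADPH oxidase genes, CYBA was abundant and NOX4 was at or under the limit of detection. NOX4 (ENSG00000086991, GRCh38 chromosome 11, 89324356 to 89498187, minus strand) was listed at 0 in 8 of 9 libraries and at 0.0094 FPKM, 1 fragment, in control replicate 3. At its exon length of 6096 bases a count of 0 allows up to 0.0261 to 0.0321 FPKM (3 fragments per library, counting error only). No fold change can be given.

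CYBA, the small membrane subunit shared by several oxidases, had 49.5 FPKM or more in every library (ENSG00000051523, GRCh38 chromosome 16, 88643283 to 88651152, minus strand). It had 82.0, 73.5 and 60.3 FPKM with LF+PM2.5, 65.7, 57.6 and 56.5 with PM2.5, and 80.3, 64.8 and 49.5 in control. All 3 groups overlapped, with control spanning nearly the whole range. The log2 fold change was -0.14 ± 0.17 with PM2.5 versus control (95% interval -0.52 to 0.25) and 0.26 ± 0.17 with LF+PM2.5 versus PM2.5 (-0.13 to 0.65), with limma adjusted p = 0.576 and 0.498. The first was 0.01 without control replicate 1 and -0.30 without control replicate 3, and the second was 0.14 without LF+PM2.5 replicate 1 (limma adjusted p = 0.957, 0.205 and 0.941).

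The other catalytic subunits were low or listed at 0. NOX3 and NOX5, and the cytosolic phagocyte subunit gene NCF4, were listed at 0 in all 9 libraries. CYBB, the phagocyte oxidase that CYBA also anchors, had 3 fragments over the 9 libraries. DUOX1, an oxidase of epithelial surfaces, had at most 0.114 FPKM. NOX1, the oxidase best known from colon epithelium, had the highest catalytic level, with 0.376, 0.344 and 0.525 FPKM with LF+PM2.5, 0.443, 0.657 and 0.424 with PM2.5, and 0.231, 0.38 and 0.338 in control. These are 163 fragments in all, and NOX1 fell under the filter and was not in the main fit.

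**Figure D3:**
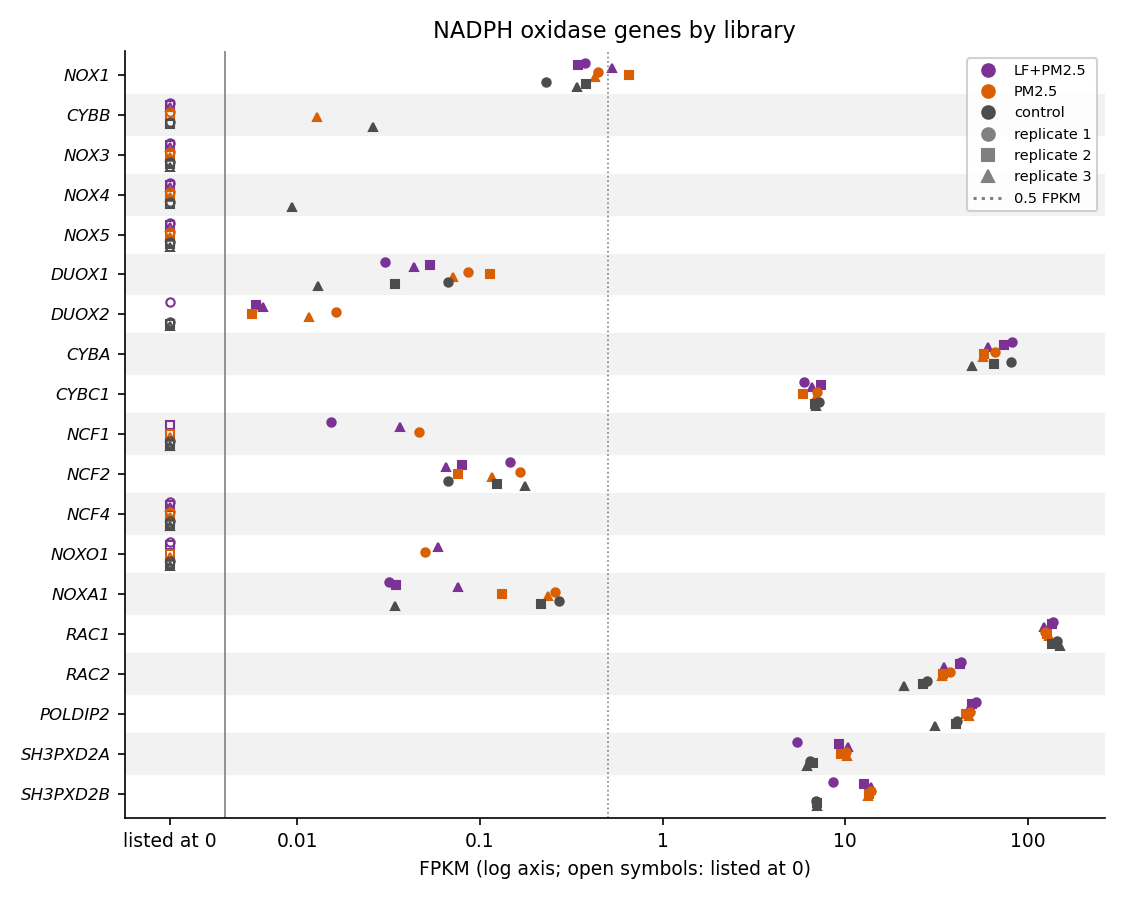
FPKM on a log axis of CYBA, NOX4 and 17 other NADPH oxidase genes in every library, coloured by group, with replicate symbols; open symbols at the left mark values listed at 0 and the dotted line marks 0.5 FPKM. NOX4 has 1 value above 0 (0.0094 FPKM), while CYBA lies between 49.5 and 82.0 FPKM.

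By level per length, the order was the same in each group: GPX1, SOD1, CYBA, SOD2, CAT, SOD3, NOX4. The place of SOD2 depends on the exon length used for its FPKM, which is not given in the sources used here. Neighbours in this order did not overlap, except SOD2 and CAT in control, at 11.7 ± 1.98 and 10.96 ± 1.04 FPKM (SD, n = 3 each). With PM2.5, SOD2 stood at 22.01 ± 0.641 and CAT at 12.3 ± 0.929 FPKM (SD, n = 3 each), 1.79-fold apart. Among all tested genes, the mean levels of GPX1, SOD1 and CYBA ranked at percentiles 99.1, 97.9 and 96.2, and SOD3 at 59.4.

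Counted together, 1 of the 6 tested members rose and 0 fell with PM2.5 versus control, where 35.1% of all tested genes were called (18.7% higher, 16.4% lower). The median log2 fold change of the 6 was -0.12, against 0.0037 over all 14454 tested genes. Among LF+PM2.5 libraries against control ones, 1 rose and 0 fell, with a background of 38.5% called (20.3% higher, 18.2% lower), and the median was 0.10 against 0.0030. Between LF+PM2.5 and PM2.5, limma called 0 of 6, with a background of 0.0484% (0.0208% higher, 0.0277% lower). SOD2 was the single member with an unadjusted p under 0.05 there, a level that 1763 of all 14454 tested genes reached. Of the 6 values 5 were positive, as were 7346 of the 14454, with a median of 0.21 against 0.0038 over all tested genes. On scaled values the groups did not overlap for 2 of 6 members with PM2.5 versus control (SOD2 higher and GPX1 lower; background 53.7%, with 28.2% higher and 25.5% lower). The same held for 1 of 6 with LF+PM2.5 versus PM2.5 (SOD2 lower; background 20.5%, with 9.42% higher and 11.1% lower) and 2 of 6 with LF+PM2.5 versus control (SOD2 and CAT higher; background 47.8%, with 24.8% higher and 23% lower). The comparisons share libraries, so their values are not independent of each other.

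**Figure D4:**
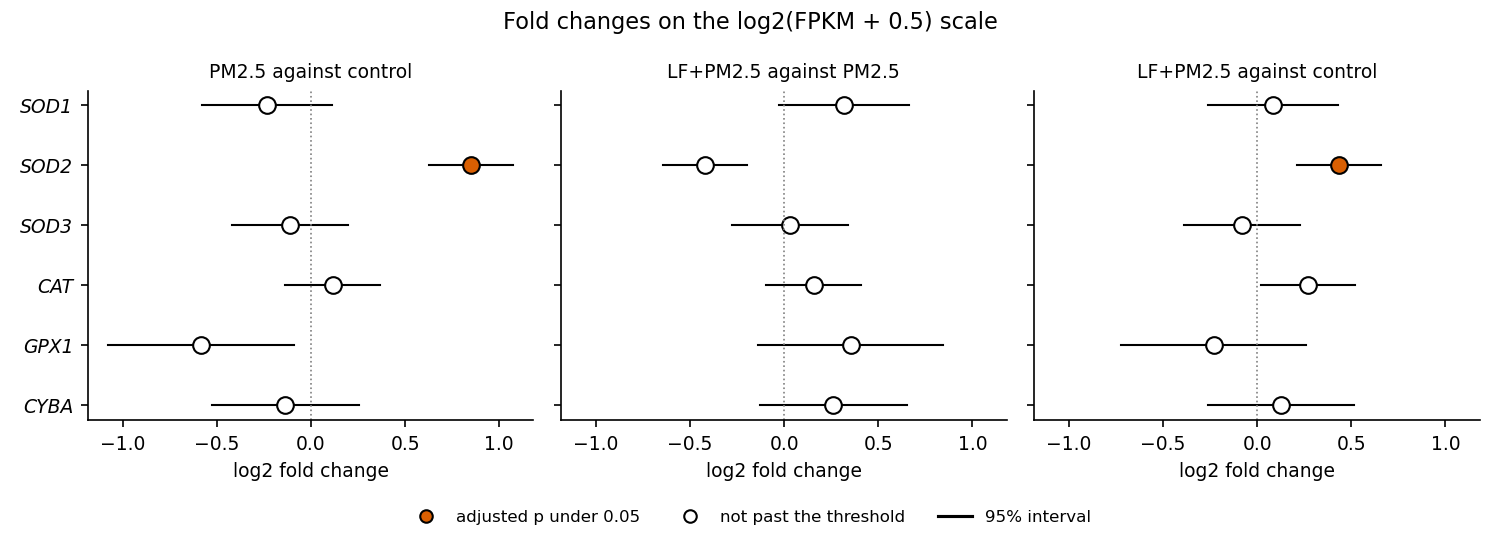
Log2 fold change of the 6 tested members (points) with 95% intervals (lines) in the 3 comparisons, on the log2(FPKM + 0.5) scale; filled points passed an adjusted p of 0.05. SOD2 is filled for PM2.5 versus control (0.85) and for LF+PM2.5 versus control (0.43), and the other points are open.

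Within groups, 4 of the 6 members shared a library pattern. SOD1, CAT, GPX1 and CYBA had their highest level in replicate 1 of all 3 groups, whereas SOD2 and SOD3 did not. The share of all tested genes with this pattern was not counted, so it cannot be called particular to these members. The slope of each library's deviation on exon length, over 14440 genes, was 0.0429 log2 units per doubling of length in control replicate 3 and -0.0315 in LF+PM2.5 replicate 1, and between -0.0159 and 0.0080 in the others. Its part in the members' spread was not tested beyond the fit that removes it, in which SOD2 remained higher than control in both exposed groups and GPX1 was lower with PM2.5 (-0.54, limma adjusted p = 0.0234).

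The genes most like each member over the 9 libraries were found among 6593 tested genes with a mean of at least 5 FPKM. For SOD2 these were the chemokine gene CXCL2 (Pearson r = 0.98) and the EGFR ligand gene TGFA (0.96). CXCL2 stood at 30.2 ± 2.02 FPKM with LF+PM2.5, 46.1 ± 5.10 with PM2.5 and 16.1 ± 2.71 in control (SD, n = 3 each), the same order of groups as SOD2. For GPX1 they were the ribosomal protein genes RPL10A and RPS2 (0.996 and 0.995), and RPL10A stood at 315 ± 64.6, 258 ± 20.9 and 362 ± 81.5 FPKM in the same order of groups. SOD1 was closest to NDUFA12 and BTF3 (0.98 and 0.97), CYBA to SSNA1 and PMF1 (0.99 and 0.99), CAT to DPCD and PPP1R7 (0.96 and 0.95), and SOD3 to DHX8 and CCDC102A (0.95 and 0.85). Each r describes 9 libraries that share 3 groups and their library patterns, and was picked as the highest of many.

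Around the members, 75 genes on 7 lists were examined, of which 53 passed the filter. With PM2.5 versus control 16 rose and 5 fell, 21 in all, with a background of 35.1% called over all tested genes. The 21 became 12 without PM2.5 replicate 1 and 13 without PM2.5 replicate 2. The number called over all genes changed too, from 3698 to 7729 over the 22 alternatives, against 5079 in the main fit. For LF+PM2.5 versus control 18 rose and 7 fell, 25 in all, with a background of 38.5%, and with LF+PM2.5 versus PM2.5 limma called 0 of the 53.

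Of 6 tested NADPH oxidase regulators, 4 rose and 0 fell with PM2.5 (median log2 fold change 0.37; background 18.7% higher, 16.4% lower). SH3PXD2B and SH3PXD2A encode scaffold proteins that organise oxidases at podosomes. SH3PXD2B had 13.5 ± 0.293 FPKM with PM2.5 and 6.98 ± 0.0322 in control (SD, n = 3 each; 0.86 ± 0.14), and SH3PXD2A rose by 0.55 ± 0.18. RAC2, a small GTPase of the oxidase complex, rose by 0.43 ± 0.12, and POLDIP2, a partner of NOX4 and CYBA, by 0.30 ± 0.10 (limma adjusted p of the 4 from 0.00154 to 0.0447). The uncalled RAC1 and CYBC1 stood at -0.22 ± 0.10 and -0.12 ± 0.10 (limma adjusted p = 0.106 and 0.378). In LF+PM2.5 libraries versus control 3 of the 6 rose and 0 fell (background 20.3% higher, 18.2% lower). These were RAC2 by 0.62 ± 0.12, SH3PXD2B by 0.64 ± 0.14 and POLDIP2 by 0.38 ± 0.10. SH3PXD2A stood at 0.28 ± 0.18 there (limma adjusted p = 0.251). LF+PM2.5 replicate 1 had the group's lowest level of both scaffold genes, 8.57 FPKM of SH3PXD2B against 12.6 and 13.8 in the other 2 libraries.

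Of 7 tested genes that carry metals to the dismutases, 3 rose and 0 fell with PM2.5, and the same 3 rose with LF+PM2.5 versus control (medians 0.23 and 0.20), with backgrounds of 18.7% and 20.3% higher. SLC39A14, a carrier of manganese, zinc and iron, was at 41.9 ± 8.72 FPKM with LF+PM2.5, 42.7 ± 1.69 with PM2.5 and 21.3 ± 2.64 in control (SD, n = 3 each). Its log2 fold change with PM2.5 was 0.95 ± 0.13 (limma adjusted p = 0.000757). SLC39A8, a related carrier of manganese and zinc, rose by 0.41 ± 0.08 with PM2.5, and SLC31A1, the copper importer, by 0.37 ± 0.09. CCS, the copper chaperone of SOD1, stood at -0.18 ± 0.12 (limma adjusted p = 0.298).

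Of 10 other tested peroxide-reducing enzymes and their partners, 1 rose and 2 fell with PM2.5, and 2 rose and 2 fell with LF+PM2.5 versus control (medians -0.19 and 0.03), with backgrounds of 35.1% and 38.5% called. GPX4, which reduces lipid peroxides, had 106 ± 24.6 FPKM with LF+PM2.5, 89.1 ± 12.6 with PM2.5 and 157 ± 31.0 in control (SD, n = 3 each), and fell by 0.86 on the log2 scale with PM2.5. GPX8, of the endoplasmic reticulum, fell by 0.22. SRXN1, which reactivates overoxidised peroxiredoxins, rose by 0.90 ± 0.23, and PRDX1, a cytosolic peroxiredoxin, rose with LF+PM2.5 versus control (0.49 ± 0.16, limma adjusted p = 0.036) and stood at 0.23 ± 0.16 with PM2.5 (0.288).

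The machinery that makes selenoproteins such as GPX1 had 2 of 5 tested genes higher and 0 lower with PM2.5, and 3 higher and 1 lower with LF+PM2.5 versus control (medians 0.23 and 0.45; backgrounds 35.1% and 38.5% called). SEPHS2, which makes the selenium donor, rose by 0.66 ± 0.08 with PM2.5 (limma adjusted p = 0.000294), and EEFSEC, the selenocysteine elongation factor, by 0.39 ± 0.12. With LF+PM2.5 versus control PSTK, which phosphorylates the serine-loaded tRNA of selenocysteine, rose by 0.63 ± 0.13. SECISBP2, which reads the selenocysteine signal in mRNAs, fell by 0.36 in that comparison. With PM2.5 versus control PSTK stood at 0.23 ± 0.13 and SECISBP2 at -0.27 ± 0.10 (limma adjusted p = 0.204 and 0.0719).

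Import of catalase and other proteins into peroxisomes depends on PEX genes. Of 9 tested, 2 rose and 1 fell with PM2.5, and 3 rose and 1 fell with LF+PM2.5 versus control (medians 0.16 and 0.15), near the backgrounds of 35.1% and 38.5% called. PEX6, an ATPase that recycles the import receptor, had 23.4 ± 0.652 FPKM with LF+PM2.5, 24.0 ± 1.11 with PM2.5 and 11.2 ± 0.526 in control (SD, n = 3 each; log2 fold change with PM2.5 1.03 ± 0.07, limma adjusted p = 1.29e-05). PEX5, the receptor itself, rose by 0.38 ± 0.08 with PM2.5. PEX2, a ubiquitin ligase of the import complex, fell by 0.41. PEX14, a docking protein, rose with LF+PM2.5 versus control (0.37 ± 0.12) and stood at 0.35 ± 0.12 with PM2.5 (limma adjusted p = 0.0545).

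Of 7 other tested oxidases that form superoxide or hydrogen peroxide, 4 rose and 1 fell in each comparison with control (median 0.32 with PM2.5), where 35.1% and 38.5% of all tested genes were called with PM2.5 and with LF+PM2.5. SMOX, spermine oxidase, had 43.2 ± 3.72 FPKM with LF+PM2.5, 35.8 ± 4.59 with PM2.5 and 15.7 ± 1.19 in control (SD, n = 3 each; 1.11 ± 0.11 with PM2.5, limma adjusted p = 0.00013). XDH, xanthine dehydrogenase, rose by 0.63 ± 0.14 at low levels (0.644 ± 0.108 and 0.227 ± 0.00151 FPKM with PM2.5 and in control, SD, n = 3 each), and MAOA, a mitochondrial amine oxidase, by 0.32 ± 0.09. AOX1, aldehyde oxidase, fell by 0.82 with PM2.5.

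Of 9 tested transcriptional regulators 0 rose and 1 fell with PM2.5, and 0 rose and 2 fell with LF+PM2.5 versus control (medians -0.06 in both; backgrounds 16.4% and 18.2% lower). PPARGC1A, a coactivator of mitochondrial and antioxidant genes, had 0.480 ± 0.0857 FPKM with LF+PM2.5, 0.526 ± 0.187 with PM2.5 and 2.15 ± 0.174 in control (SD, n = 3 each), and fell by 1.42 with PM2.5 (limma adjusted p = 0.000179). NFKB1, a subunit of NF-kB, fell by 0.42 with LF+PM2.5 versus control and stood at -0.11 ± 0.10 with PM2.5 (limma adjusted p = 0.421). NFE2L2, which encodes NRF2, stood at -0.31 ± 0.13 with PM2.5 (limma adjusted p = 0.0915).

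**Figure D5:**
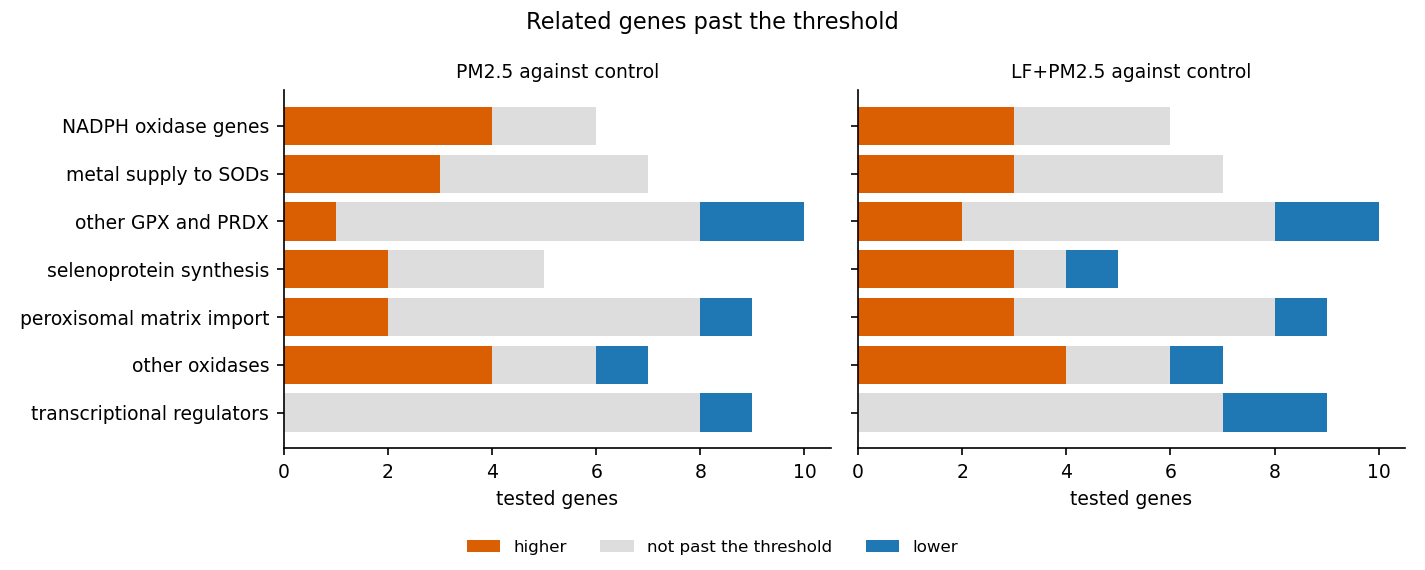
Number of tested genes (horizontal axis) on each of the 7 related lists that were higher, lower or not past an adjusted p of 0.05 with PM2.5 versus control (left) and LF+PM2.5 versus control (right). NADPH oxidase genes have 4 of 6 higher on the left and 3 of 6 on the right, and transcriptional regulators have 0 higher in either. Over all tested genes 18.7% were higher in the left comparison and 20.3% in the right one.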

How the data were processed

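RNA from 9 HK-2 libraries, 3 per group by the treatment labels, had been sequenced. Per the submitters' processing notes, reads went through HISAT2 2.1.0 and featureCounts 1.6.0 on GRCh38, with Trimmomatic 0.38, DESeq2 1.22.1, CASAVA, MultiQC and FastQC also named. Settings and annotation release: not given in the sources used here. The deposited values are FPKM, 1 file per sample, a unit inferred from the values: with GENCODE release 29 exon lengths (58611 identifiers matched), 86.0% to 87.3% of low values per library (up to 200 fragments) were whole multiples of 1 step within 0.05. That gave the depths. Lengths differ for some genes, SOD2, SOD3 and GPX1 among them, so their fragment numbers are approximate.

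FPKM were divided by trimmed mean of M values factors (0.942 to 1.036), and log2(FPKM + 0.5), which understates changes of low genes, was fitted with limma 3.58.1 under R 4.3.3, as means of 3 groups over all 9 libraries, with eBayes with trend and robust options. P-values were Benjamini-Hochberg adjusted over 14454 genes and called under 0.05. On simulated data 2%, 58%, 86% and 94% of genes changed 1.25-fold, 1.5-fold, 2-fold and 4-fold were recovered for PM2.5 versus control (14300 genes). For LF+PM2.5 versus PM2.5 12%, 48%, 80% and 90% were recovered (14307 genes). The simulation changed 200 genes and gave all genes 1 dispersion, 0.00652, without outlying libraries or a length trend. Recovery in the real data can therefore differ. Ratios were tested by exact permutation (scipy 1.17.1), and figures drawn with matplotlib 3.10.9.

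Members, lists and alternatives were chosen with earlier results of these data known; TRU-TCA1-1 matched no identifier. All members were named, with up to 6 called genes per related list and the 2 most alike genes per member. 1 called gene of the related lists is counted but not reported here by name. Oxidases below the filter, RAC1, CYBC1, CCS, NFE2L2 and uncalled values of genes called in another comparison were named after their values were seen. Alternatives covered pseudocount, filter, scaling, limma-voom, library weights, samples fitted, a replicate block, each library left out, and an exon length trend (added after seeing the data).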

Additional observations from a re-analysis of the deposited data

How the results depend on the processing

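SOD2 stayed past the threshold with PM2.5 and with LF+PM2.5, each against control, in all 22 alternatives (log2 fold change 0.72 to 0.99 and 0.30 to 0.71). With PM2.5 versus control 2 members were called in place of 1 (GPX1 added, lower) with limma-voom, with library weights, among only the 6 libraries compared, after removal of the exon length trend and without control replicate 3 and LF+PM2.5 replicate 1 together. Leaving out 1 library gave 1 to 2. With LF+PM2.5 versus control 2 were called without scaling (CAT added) and without those 2 libraries (GPX1 added), and 3 with library weights. With LF+PM2.5 versus PM2.5 1 member, 7 related genes and 1841 of all genes were called with library weights, against 0, 0 and 7. The default estimate of these weights did not converge, so a gene-by-gene estimate was used. The related genes called with PM2.5 numbered 12 to 23 when 1 library was left out, against 21, with 12 without PM2.5 replicate 1 and 13 without PM2.5 replicate 2. Over all genes 3698 to 7729 were called in the 22 alternatives of that comparison.

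Same-numbered libraries did not deviate together throughout (correlations -0.07 to 0.18), so the numbers were not taken as pairs. Differently numbered libraries of different groups had correlations of -0.18 to 0.14. With the replicate block 2 members were called with PM2.5 versus control (GPX1 added, limma adjusted p = 0.00287) and 2 with LF+PM2.5 versus control (CAT added), and 13 genes in all with LF+PM2.5 versus PM2.5.

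Over all genes, library weights called 7729 with PM2.5 versus control, against 5079. With LF+PM2.5 versus PM2.5 the 7 became 16 under the stricter filter or limma-voom, 17 without the length trend, 2 among 6 libraries, 3 without the 2 libraries together, and 0 to 5 without any 1 library. The cause of these changes was not tested. Signs of uncalled values changed for SOD3 (2, 4 and 3 of 22 alternatives in the 3 comparisons), CYBA (1, 0 and 3) and SOD1 (0, 0 and 3). NOX4 and the other oxidases below the filter are limited by depth.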
